A study of Mus musculus with 14 samples.

Results

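The genes described here are 9 complement components and receptors, C1qa, C1qb, C1qc, C4b, C3, Serping1, C3ar1, C5ar1 and Itgam, of 43346 genes counted. They were chosen by name as parts of the complement system, with earlier results of these data known. Expression was measured by RNA sequencing in frozen brain tissue with hippocampus and cortex from 14 female mice aged 23 months, each library from a separate mouse. The 4 NTG mice (7 to 10) were non-transgenic and drank water with the vehicle, PEG. The 5 APP/PS1 mice (16 to 20) carried familial Alzheimer's disease mutations in APP and PS1, with the genotype given as APP/PS1 +/+, and drank the same vehicle water. The 5 CP2-treated APP/PS1 mice (21 to 25) had the same genotype and received CP2, a tricyclic pyrone that partially inhibits mitochondrial complex I, at 25 mg/kg/day in drinking water from 9 months of age for 14 months. All 3 groups had the strain C57BL/6;SJL-Tg, and the NTG mice were littermates of the transgenic ones. The promoters that drive the transgenes were not given in the sources used here. NTG mice given CP2 were not analysed here.

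Complement is a cascade of proteins that tags particles and cells for removal. C1q binds the target and starts the classical pathway, which cleaves C4 and then C3, and fragments of C3 and C5 attract or activate cells through the receptors C3ar1 and C5ar1. In the brain, microglia are the main source of C1q and carry complement receptor 3, whose alpha chain is Itgam (CD11b), whereas astrocytes are known to make C4 and C3. In transgenic models of amyloid deposition complement is studied for its part in the removal of synapses.

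C1qa, C1qb and C1qc lie close together on the minus strand of chromosome 4, at chr4:136895917-136898803, chr4:136880129-136886187 and chr4:136889804-136893065 (mm10). C4b (chr17:34728380-34743882) and C3 (chr17:57203970-57228136) are both on the minus strand of chromosome 17. Serping1 is at chr2:84765387-84775444, C3ar1 at chr6:122847138-122856161 and C5ar1 at chr7:16246743-16259540, all on the minus strand, and Itgam at chr7:128062640-128128160 on the plus strand. The values count reads over the exons of each gene, coding and untranslated.

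Sequence is shown first for the places where it bears on what was counted. C4b and C4a are neighbouring copies on chromosome 17, and their transcripts were identical at 96.1% of 5367 aligned bases. In windows of 101 bases along the C4b transcript, 16.3% had an exact copy in C4a, and a single read within such a window could not be told apart. The paper reports paired-end reads, and the mate of a read was not taken into account. The share of reads that could not be placed was not determined. The window with the most mismatches, 16, lies in exon 21 of 41 of C4b (chr17:34735430-34735530, mm10, minus strand) and is within its coding sequence. It is printed in the direction of transcription, with the mismatched bases in capitals.
C4b: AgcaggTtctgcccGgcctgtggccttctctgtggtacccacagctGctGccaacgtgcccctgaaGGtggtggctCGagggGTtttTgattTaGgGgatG
C4a: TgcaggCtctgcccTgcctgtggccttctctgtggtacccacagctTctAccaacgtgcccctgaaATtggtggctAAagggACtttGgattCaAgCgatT
A read over this window separates the copies, whereas the median window differed at 2 bases. Of the other members, 7 had no exact copy of any such window in another GENCODE vM21 gene. In Itgam 71.0% of the windows were shared with Gm49368, a gene model over the same locus that is not in the table analysed, so the Itgam counts cannot be split between the models.

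Promoters from RefSeq (GRCm38.p6) were found for 6 of the 9 genes, C1qb, C1qc, C3ar1, C5ar1, Itgam and C3. C1qb and Itgam are shown because their upstream windows hold no annotated exon and have a match of the motif, as the 250 bases before the start in the direction of the gene. Capitals mark the core motif of PU.1, a myeloid transcription factor, written GAGGAA on either strand. They lie at chr4:136886201-136886450 on the minus strand and chr7:128062390-128062639 on the plus strand.
C1qb: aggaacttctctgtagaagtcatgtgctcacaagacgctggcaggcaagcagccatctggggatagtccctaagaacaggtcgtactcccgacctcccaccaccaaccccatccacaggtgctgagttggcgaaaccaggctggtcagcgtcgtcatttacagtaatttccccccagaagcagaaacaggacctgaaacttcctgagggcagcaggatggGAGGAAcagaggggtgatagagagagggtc
Itgam: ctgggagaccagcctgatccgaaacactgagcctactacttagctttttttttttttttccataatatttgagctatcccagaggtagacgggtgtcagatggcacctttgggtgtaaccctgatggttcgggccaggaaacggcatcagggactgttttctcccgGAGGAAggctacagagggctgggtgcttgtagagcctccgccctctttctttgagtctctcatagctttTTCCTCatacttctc
In windows from 250 bases before to 50 after the start, this motif was found in C1qb, C1qc and Itgam and in 28.3% of all 32851 promoters. The NF-kB core, searched as GGG and TTTCC with 2 bases between them, was found in C3ar1 and in 1.63% of all promoters. The gamma-activated sequence (TTC and GAA with 3 bases between them) and the core of the interferon-stimulated response element (GAAA, 2 bases and GAAA again), all on either strand, were found in none of the 6 and in 8.30% and 3.44% of all promoters. These matches are descriptions and not binding sites.

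Total counts per mouse ranged from 70548781 to 106235625. The APP/PS1 mouse 16 stood apart, since its 10 striatal markers summed to 2660 CPM (counts scaled to the library total), against 209 to 402 CPM in the other 13 mice. It also had the lowest level of each of the 9 complement genes among the 5 APP/PS1 mice. Yam1 and AY036118, genes like ribosomal RNA, took a share of 4.72 to 7.50% of counts in NTG, 2.40 to 5.51% in APP/PS1 and 4.49 to 7.40% in CP2-treated mice. Levels are CPM scaled by TMM factors, a correction for composition. Tests were run on genes above 1 CPM in all mice of either group, and a gene was called at an adjusted p under 0.05 with edgeR's quasi-likelihood test over all genes tested.

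APP/PS1 mice were compared with NTG mice to find whether complement transcripts differed with the genotype. Of the 9 genes, 8 rose and none fell, with fold changes from 1.96 for Itgam to 4.35 for C3ar1, while C3 did not pass the test. Of all 16417 genes tested 5.68% were called, and 4.34% were called higher. The groups did not overlap for 7 of the 9 genes, against 10% of all genes and 5.93% in the higher direction. The median log2 fold change of the 9 genes was 1.62, and that of all genes tested was -0.0042.

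**Figure D1:**
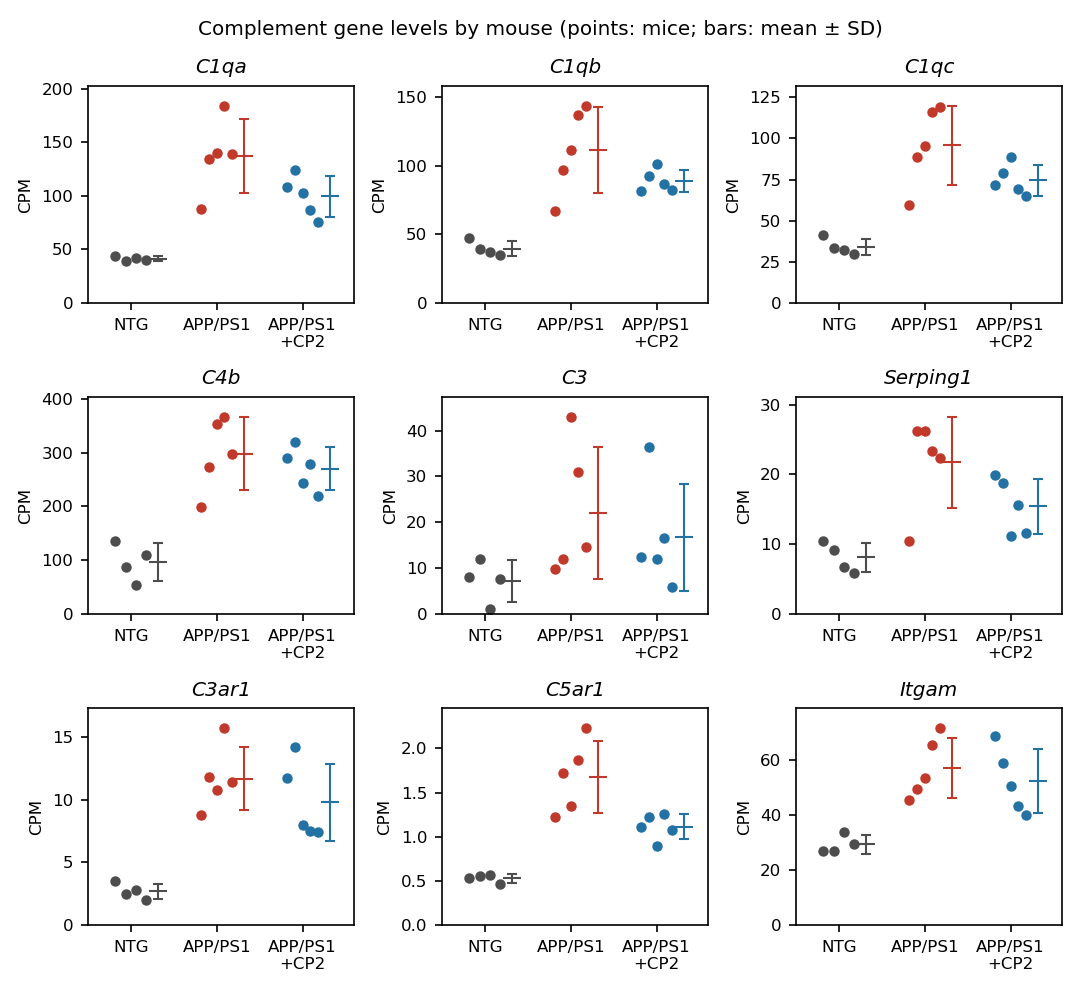
Levels of the 9 complement genes in CPM (vertical axes, from 0) in each of 14 mice, with 1 point per mouse and the mean ± SD of each group beside the points. In 7 genes all 5 APP/PS1 mice lie above all 4 NTG mice, and in C3 and Serping1 the ranges of these groups meet.

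The 3 chains of C1q, the recognition protein of the classical pathway, rose together. C1qa was at 44.1, 39.0, 42.1 and 40.3 CPM in NTG mice 7 to 10, and at 87.3, 134, 140, 184 and 139 CPM in APP/PS1 mice 16 to 20. The NTG mice lay within 1.13-fold of each other, and every APP/PS1 mouse was above all of them. The mean was 41.4 CPM in NTG (SD 2.225, n = 4) and 137 CPM in APP/PS1 mice (SD 34.3, n = 5), a log2 fold change of 1.74 with SE 0.18 (edgeR adjusted p = 0.000494).

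C1qb was at 47.3, 39.4, 37.0 and 34.9 CPM in NTG mice and at 67.1, 96.8, 111, 137 and 144 CPM in APP/PS1 mice. C1qc was at 41.3, 33.2, 32.5 and 29.8 CPM in NTG mice and at 59.4, 88.7, 95.3, 116 and 119 CPM in APP/PS1 mice. In both genes mouse 16 was the APP/PS1 mouse nearest to NTG and mouse 20 the highest, without overlap between the groups. The log2 fold changes were 1.499 (SE 0.21, edgeR adjusted p = 0.00227) for C1qb and 1.49 (SE 0.20, edgeR adjusted p = 0.00159) for C1qc.

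C4b, the carrier of the classical pathway's next step, was at 136, 86.5, 53.3 and 110 CPM in NTG mice and at 199, 273, 353, 366 and 297 CPM in APP/PS1 mice. NTG mice differed among themselves by more in C4b than in C1q, with a coefficient of variation of 36.4% against 5.38% for C1qa, yet the groups did not overlap. The log2 fold change was 1.63 (SE 0.27, edgeR adjusted p = 0.00570). Its neighbour C4a, which is no member, had means of 11.2 CPM in NTG and 31.6 CPM in APP/PS1 mice and did not pass the test (adjusted p = 0.0574). The counts of C4a were 0.112 ± 0.0223 (SD, n = 4) of those of C4b in NTG and 0.103 ± 0.0194 (SD, n = 5) in APP/PS1 mice (exact permutation test, two-sided, p = 0.635).

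C3, on which all complement pathways converge, varied most. It was at 8.14, 11.9, 1.04 and 7.74 CPM in NTG mice and at 9.73, 11.9, 43.0, 30.9 and 14.6 CPM in APP/PS1 mice. NTG mouse 9 was far below the other NTG mice, and APP/PS1 mice 18 and 19 were the highest, while mice 16 and 17 fell inside the NTG range. The log2 fold change of 1.62 had an SE of 0.64 and did not pass the test (edgeR adjusted p = 0.202, unadjusted p = 0.0294). The 95% interval of the fold ran from 1.08 to 8.77. With single mice left out the log2 fold change ranged from 1.23, without APP/PS1 mouse 18, to 1.97, without NTG mouse 8, and no such fit passed the test. Leaving out NTG mouse 9 gave 1.26.

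Serping1, the C1 inhibitor that limits the classical and lectin pathways, was at 10.5, 9.24, 6.80 and 5.91 CPM in NTG mice. In APP/PS1 mice it was at 10.5, 26.2, 26.3, 23.3 and 22.4 CPM. Mouse 16 was at the level of the highest NTG mouse, and the other 4 APP/PS1 mice were above all NTG mice. The log2 fold change was 1.43 (SE 0.27, edgeR adjusted p = 0.0132), and it was 1.61 without mouse 16. The call was lost without NTG mouse 9 (adjusted p = 0.0534).

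The receptors also rose. C3ar1, the receptor of the C3a fragment, was at 3.48, 2.47, 2.82 and 2.03 CPM in NTG mice and at 8.76, 11.8, 10.7, 15.7 and 11.4 CPM in APP/PS1 mice. The lowest APP/PS1 mouse was well above the highest NTG mouse, and the log2 fold change of 2.12 (SE 0.20, edgeR adjusted p = 0.000315) was the largest of the 9 genes. C5ar1, the receptor of C5a, was low throughout, at 0.534, 0.550, 0.569 and 0.460 CPM in NTG mice and at 1.22, 1.72, 1.35, 1.87 and 2.235 CPM in APP/PS1 mice. These levels rest on 37 to 47 counts per NTG mouse and 106 to 202 per APP/PS1 mouse, and the groups did not overlap. Its log2 fold change was 1.68 (SE 0.20, edgeR adjusted p = 0.00107). It passed the filter of 1 CPM only through the APP/PS1 group, where it is higher, and without the filter the log2 fold change was 1.66 (edgeR adjusted p = 0.000703).

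Itgam was at 26.9, 26.8, 33.9 and 29.6 CPM in NTG mice and at 45.4, 49.6, 53.4, 65.3 and 71.7 CPM in APP/PS1 mice. The groups did not overlap, but the log2 fold change of 0.97 (SE 0.14, edgeR adjusted p = 0.00286) was the smallest of the 9 genes. Leaving out mouse 16 left 8 of the 9 genes called.

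Levels per kilobase of gene model were also ordered within each mouse. C1qa and C1qb held the top places in all 14 mice, followed by C4b and C1qc in either order. Itgam and Serping1 came next in all 14 mice, and C3, C3ar1 and C5ar1 were the lowest. C5ar1 was last in every mouse but NTG mouse 9, where C3 was last. This order depends on the length used. The gene model of C1qc has 1931 bases, but its longest protein-coding transcript has 1203. The order by transcript length was not determined.

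Markers of microglia moved with these genes. The 12 microglia markers summed to 416 to 438 CPM in NTG and 747 to 993 CPM in APP/PS1 mice, and 8 of 12 were called higher, with a median log2 fold change of 0.97. The 5 markers of all leukocytes were all called higher. All 6 reactive astrocyte markers tested were called higher, with a median of 2.097, and the 8 reactive astrocyte genes summed to 397 to 607 CPM in NTG and 1196 to 3035 CPM in APP/PS1 mice. In bulk tissue, more cells of a type and more RNA per cell cannot be told apart. The 10 neutrophil and monocyte markers summed to 2.91 to 10.9 CPM in NTG and 4.13 to 7.42 CPM in APP/PS1 mice. Among them Ly6g was at 0 to 0.0856 CPM, and only Ly6c2 was high enough to be tested. Ly6c2 ranged from 1.54 to 1.96 CPM in NTG and from 2.28 to 4.47 CPM in APP/PS1 mice, without overlap. By edgeR this rise (0.74 in log2) had an unadjusted p under 0.05 but was not called. Of the markers tested, 0 of 9 for meningeal fibroblasts, 0 of 5 for choroid plexus and 0 of 3 for border macrophages were called in either direction.

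The choroid plexus markers differed greatly between mice. Their sum was 26.6 CPM in NTG mouse 9 and 166 to 960 CPM in the other NTG mice, and it ran from 27.9 CPM (mouse 16) to 1364 CPM (mouse 17) in APP/PS1 mice. C3 was lowest in NTG mouse 9 and in APP/PS1 mouse 16, which had the lowest choroid plexus sums, whereas mouse 17 with the highest sum had 11.9 CPM of C3 and mouse 19 with 43.8 CPM of choroid plexus markers had 30.9 CPM. The part of this tissue in the C3 values was not tested.

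Counts were also set against the summed counts of the 12 microglia markers in the same mouse. Itgam made up 6.87 ± 0.756% (SD, n = 4) of that sum in NTG, 6.71 ± 0.546% (SD, n = 5) in APP/PS1 and 6.98 ± 0.550% (SD, n = 5) in CP2-treated mice, with overlapping groups. C3ar1 made up 0.635 ± 0.156% in NTG and 1.38 ± 0.223% in APP/PS1 mice, without overlap. C1qa made up 9.70 ± 0.688% in NTG and 16.2 ± 3.33% in APP/PS1 mice, also without overlap. In the same way C5ar1 did not overlap, and made up 0.105 to 0.134% in NTG and 0.161 to 0.225% in APP/PS1 mice. The ranges of C1qb, C1qc, C4b, C3 and Serping1 overlapped. The share of all genes without overlap on this measure was not determined here. When each library was scaled to this sum in place of its total, the median log2 fold change of all genes was -0.98, and 6 of the 9 genes were called higher. Under this scaling 95.9% of all genes were called, most of them lower, and 1.04% were called higher. The log2 fold changes were then 1.12 for C3ar1, 0.74 for C1qa, 0.67 for C5ar1, 0.64 for C4b and 0.48 for C1qb and C1qc. Serping1 (0.44, edgeR adjusted p = 0.0767), C3 (0.65, adjusted p = 0.199) and Itgam (-0.03, adjusted p = 0.778) did not pass the test.

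**Figure D2:**
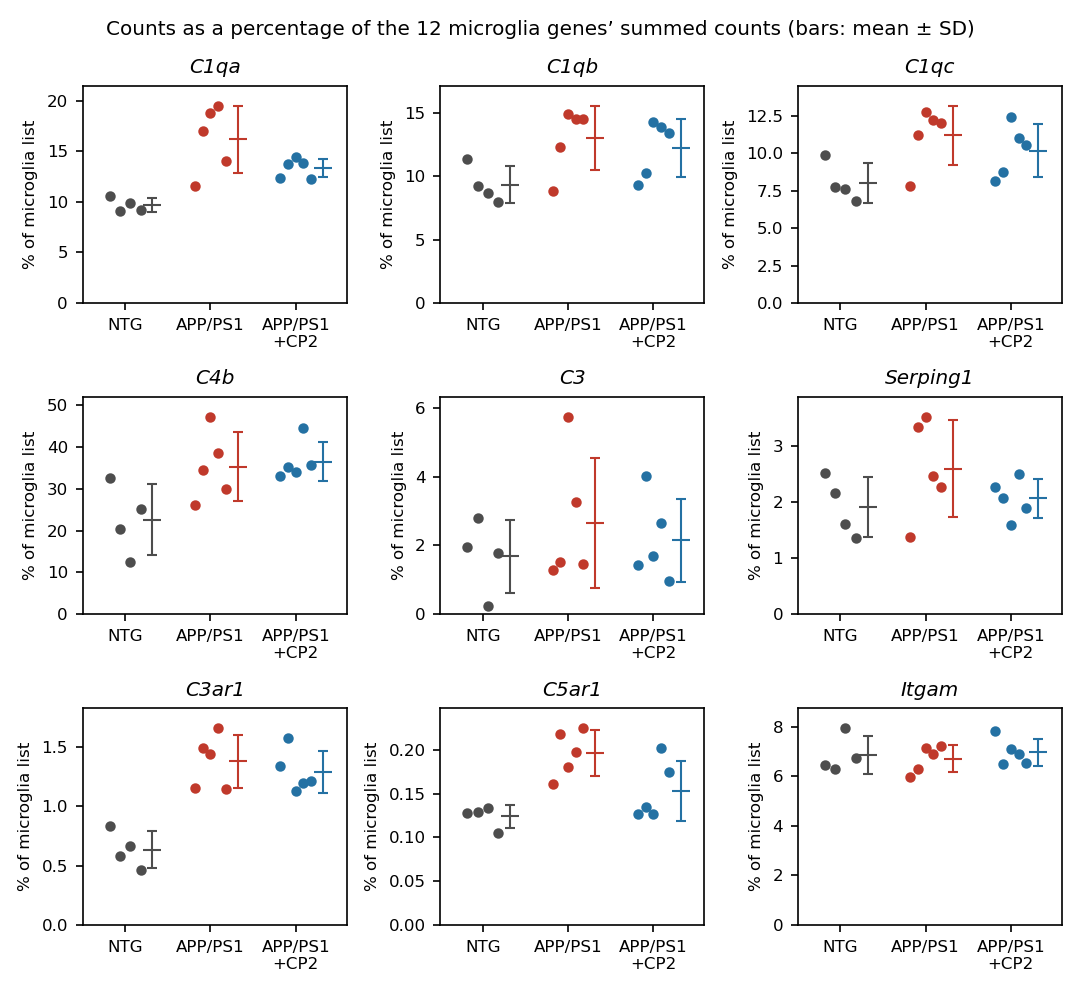
Counts of each complement gene as a percentage of the summed counts of 12 microglia markers in the same mouse (vertical axes, from 0), with 1 point per mouse and the mean ± SD of each group. Itgam stays near 7% in the 3 groups, and C3ar1 lies above all NTG mice in every APP/PS1 mouse.

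Ratios between chains within a mouse were tested because they do not depend on library size. C1qc was 0.862 ± 0.0167 (SD, n = 4) of C1qb in NTG and 0.866 ± 0.0348 (SD, n = 5) in APP/PS1 mice. C1qa was 1.05 ± 0.108 of C1qb in NTG and 1.25 ± 0.165 in APP/PS1 mice (exact permutation test, two-sided, p = 0.111, adjusted p = 0.333 over 18 ratio tests). Itgam pairs with Itgb2 (CD18) to form complement receptor 3, and Itgax (CD11c) with Itgb2 forms complement receptor 4. Itgb2 was 0.235 ± 0.0251 of Itgam in NTG and 0.414 ± 0.0269 in APP/PS1 mice, and Itgax 0.0351 ± 0.0147 of Itgam in NTG and 0.194 ± 0.0461 in APP/PS1 mice. In both ratios all 5 APP/PS1 mice were above all NTG mice, with p = 0.0159 in the exact permutation test, the smallest that 4 against 5 mice allow, and an adjusted p of 0.0714.

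**Figure D3:**
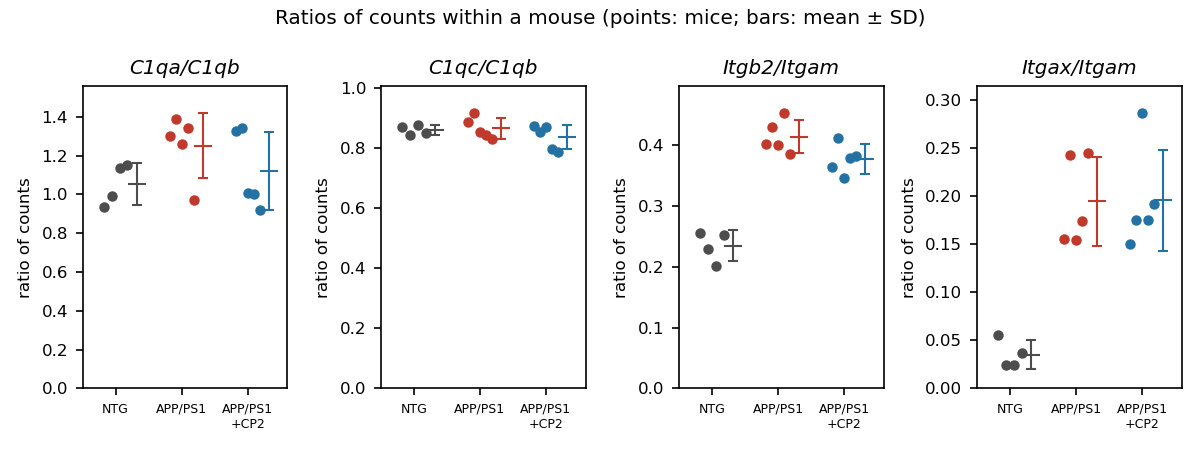
Ratios of counts within a mouse (vertical axes, from 0) for 2 pairs of C1q chains and for the integrin chains Itgb2 and Itgax over Itgam, with 1 point per mouse and the mean ± SD of each group. The ratio of C1qc to C1qb lies between 0.789 and 0.916 in all mice, and both integrin ratios are higher in every APP/PS1 mouse than in any NTG mouse.

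The other 50 genes of a complement list were read by role. Of these 23 were tested in APP/PS1 against NTG mice, 4 rose and none fell. Itgax rose most, with means of 1.01 ± 0.366 CPM in NTG (SD, n = 4) and 11.3 ± 4.11 CPM in APP/PS1 mice (SD, n = 5), a log2 fold change of 3.47 (SE 0.33, edgeR adjusted p = 0.000316). It passed the filter only through APP/PS1 mice, since NTG mice 8 and 9 were below 1 CPM, and had 3.46 without the filter. Itgb2 rose from 6.84 ± 0.534 to 23.7 ± 4.75 CPM, a log2 fold change of 1.80 (SE 0.15, edgeR adjusted p = 0.000159). Clu (clusterin), a soluble regulator of the terminal steps, rose by a log2 fold change of 0.38 (edgeR adjusted p = 0.0332). With single mice left out Itgax and Itgb2 were called in 9 of 9 fits, but Clu in 2, those without APP/PS1 mouse 16 or 19. The count of 4 fell to 2 in 7 of these 9 fits and was 8 without mouse 16.

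Of the remaining genes, many were low or close between groups, and some differed in their means. Vtn (45.0 CPM in NTG and 58.4 CPM in APP/PS1 mice, edgeR adjusted p = 0.114) and Masp1 (6.49 and 8.35 CPM, adjusted p = 0.0553) did not pass. C5ar2 (0.601 and 1.19 CPM) and Cr2 (0.919 and 0.501 CPM) were not tested. Cr2 ranged from 0.663 to 1.49 CPM in NTG, 0.315 to 0.633 CPM in APP/PS1 and 0.745 to 0.886 CPM in CP2-treated mice. The membrane regulators Susd4 (105 and 105 CPM), Csmd1 (82.4 and 78.7 CPM) and Cr1l (19.8 and 20.2 CPM) had like means in NTG and APP/PS1 mice, and none of the 8 membrane regulators tested passed. C2 (6.31 and 5.64 CPM) and Cfb, of the convertases, and Cfp (5.74 and 4.79 CPM), which stabilises the alternative convertase, did not pass either. Terminal components C6, C8a, C8b and C9, which form the membrane attack complex, had 0 to 11 counts per mouse. Mbl1, a lectin pathway recognition gene, had 0 counts in all 14 mice. Of 7 terminal component genes only C8g, at 1.53 CPM in NTG and 1.69 CPM in APP/PS1 mice, was tested.

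**Figure D4:**
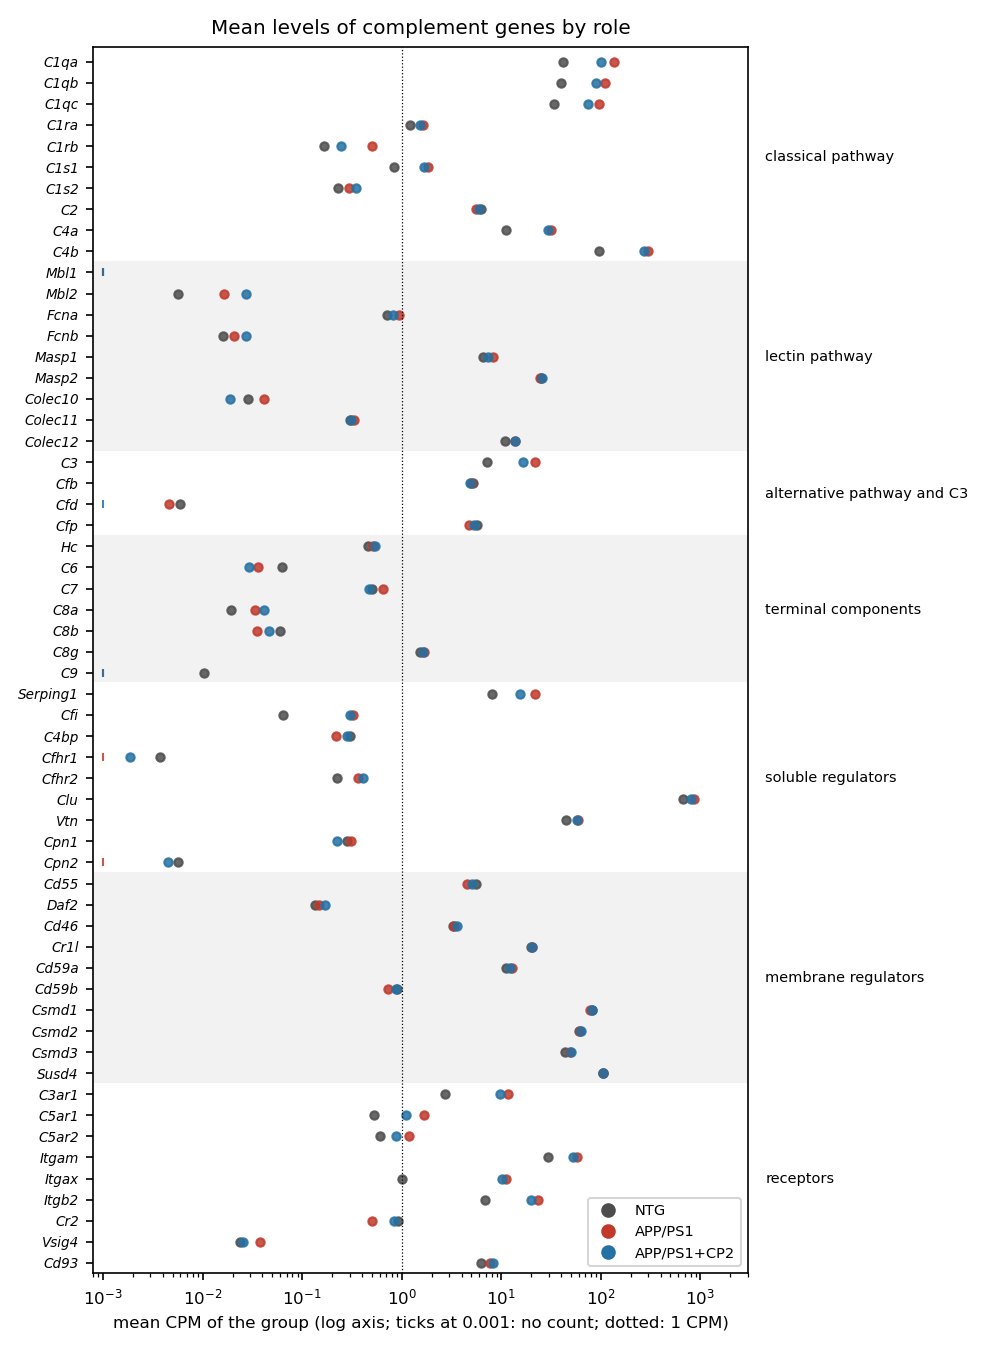
Mean CPM of the complement genes reported (log axis) in the 3 groups, 1 row per gene and grouped by role, with ticks at the left for genes without a count in a group. Means of the C1q genes, C4b, C3ar1, Itgax and Itgb2 are lower in NTG mice than in both APP/PS1 groups, and Susd4 and Cr1l have overlapping symbols.

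CP2-treated APP/PS1 mice were compared with vehicle-treated APP/PS1 mice to find whether complement transcripts differed with the drug. The vehicle-treated mice are those of the comparison with NTG. None of the 9 genes was called (edgeR adjusted p from 0.744 to 0.877), and in all 9 the groups overlapped, against 1.14% of all genes without overlap and 0.591% without overlap and lower with CP2. Of 16407 genes tested 0.00609% were called, 1 gene. At an unadjusted p under 0.05, 2 of the 9 genes, C1qa and C5ar1, were lower, against 3.66% of all genes lower and 6.55% in either direction. DESeq2 called 0 of the 9 genes, with 4 lower at an unadjusted p under 0.05, against 4.1% of all genes lower and 7.69% in either direction by that tool. Limma-voom called 0, with 5 lower, against 4.71% lower and 8.29% in either direction. In the main fit the median log2 fold change of the 9 genes was -0.36, and that of all genes was -0.0060. Scaled to the microglia markers, edgeR called 0 of the 9 genes and 10 of all 16407, and 0 of the 9 were at an unadjusted p under 0.05. The median log2 fold change was then -0.14 for the 9 genes and 0.19 for all genes.

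C5ar1 was at 1.11, 1.22, 0.900, 1.26 and 1.08 CPM in CP2-treated mice 21 to 25, with a mean of 1.11 ± 0.142 CPM (SD, n = 5) against 1.68 ± 0.409 CPM (SD, n = 5) in vehicle-treated mice. Mouse 16 was at 1.22 CPM, within the range of the treated mice, and the other vehicle-treated mice were above them. The fold was 0.665, with a 95% interval from 0.503 to 0.880 (edgeR unadjusted p = 0.00633, adjusted p = 0.744). It was tested only because all vehicle-treated mice exceeded 1 CPM, and without the filter its log2 fold change was -0.59 (edgeR adjusted p = 0.778).

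C1qa was at 109, 124, 102, 86.9 and 75.6 CPM in CP2-treated mice, with a mean of 99.6 CPM and a coefficient of variation of 19.1% (n = 5). Its fold to vehicle-treated mice was 0.726, with a 95% interval from 0.543 to 0.970 (edgeR unadjusted p = 0.0269). Mouse 16 lay inside the range of the treated mice, and the other 4 vehicle-treated mice lay above it. C1qb and C1qc had folds of 0.799 (95% interval 0.605 to 1.05) and 0.779 (0.598 to 1.01).

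Serping1 was at 19.9, 18.7, 11.2, 15.6 and 11.6 CPM in CP2-treated mice and had a fold of 0.7096 (95% interval 0.480 to 1.05). Here mouse 16, at 10.5 CPM, lay below all treated mice, and the other 4 vehicle-treated mice lay above them. Without mouse 16 the log2 fold changes were -0.67 for Serping1, -0.68 for C5ar1 and -0.59 for C1qa, and 0 of the 9 genes were called. C4b, with a fold of 0.907 (95% interval 0.706 to 1.17), and Itgam, with 0.916 (0.705 to 1.19), differed least. C3ar1 had a fold of 0.837 (0.599 to 1.17). C3 was at 12.4, 36.4, 12.1, 16.6 and 5.97 CPM in treated mice, and its interval, 0.337 to 1.71, was the widest. These intervals still hold folds of 1 for 7 genes and do not show that the groups were alike.

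Beside these values, the 12 microglia markers summed to 614 to 905 CPM in CP2-treated mice, and 0 of 12 was called. The reactive astrocyte markers summed to 1412 to 2448 CPM, with 0 of 6 called and a median log2 fold change of -0.46. Of the 24 other complement genes tested none was called, and 1, Masp1, was at an unadjusted p under 0.05 (log2 fold change -0.19, edgeR adjusted p = 0.744). The ratio of Itgb2 to Itgam was 0.377 ± 0.0248 (SD, n = 5) with CP2 (exact permutation test, two-sided, p = 0.0635 against vehicle, adjusted p = 0.229), and that of Itgax to Itgam was 0.196 ± 0.0526 (p = 0.976).

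**Figure D5:**
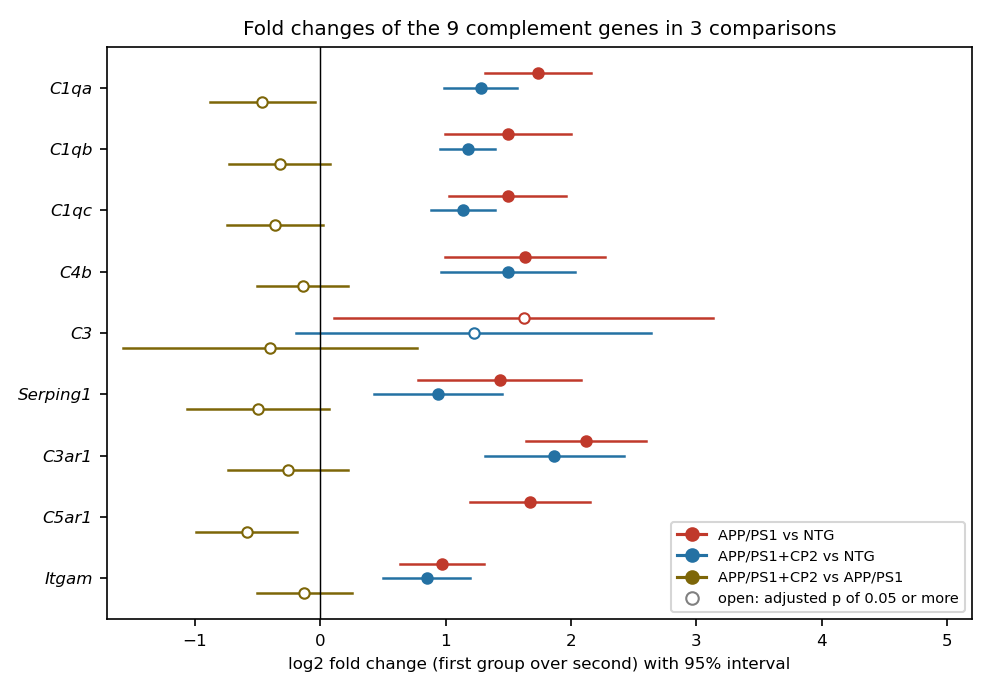
Log2 fold changes of the 9 complement genes (horizontal axis) with 95% intervals in 3 comparisons, filled where the adjusted p was under 0.05. C1qa, C1qb, C1qc, C4b, Serping1, C3ar1 and Itgam are filled in both comparisons with NTG mice, all points of the CP2 comparison are open, and C5ar1 has no point for CP2-treated against NTG mice because it was not tested there.

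CP2-treated APP/PS1 mice were also compared with NTG mice, which asks how far treated mice stood from the non-transgenic level. The NTG mice are those of the earlier comparison, so the values are given side by side only. Of the 8 genes tested 7 rose, against 6.02% of 16416 genes called in either direction and 4.56% called higher, and these 7 did not overlap, against 9.61% of all genes and 6% in the higher direction. The log2 fold changes were 1.28 for C1qa, 1.18 for C1qb, 1.14 for C1qc, 1.496 for C4b, 1.87 for C3ar1, 0.94 for Serping1 and 0.85 for Itgam, with edgeR adjusted p from 0.000198 to 0.0274. C3 had 1.22 (SE 0.60, adjusted p = 0.285).

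C5ar1 was below 1 CPM in mouse 23 and in all NTG mice and was therefore not tested. The lowest treated mouse, at 0.900 CPM, was above the highest NTG mouse, at 0.569 CPM, and without the filter its log2 fold change was 1.08 (SE 0.18, edgeR adjusted p = 0.00342). The call of Serping1 was lost without NTG mice 8, 9 or 10 or CP2-treated mice 21, 22 or 24 (adjusted p from 0.0521 to 0.0873). It was also lost with all 3 groups in the fit (0.0649) and with the ribosomal RNA share as a covariate (0.0609). Scaled to the microglia markers, with the median of all genes at -0.78, 5 genes were called higher, against 95.9% of all genes called and 0.841% called higher, and Serping1 (0.11) and Itgam (0.02) were not.

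Of the other complement genes 5 of 24 tested rose in treated against NTG mice. Itgax had a log2 fold change of 3.31 and Itgb2 of 1.54. C4a (1.41, adjusted p = 0.0346) and C1s1 (1.02, adjusted p = 0.0490), the protease partner of C1q, were also called by edgeR. With single mice left out C4a was called in 4 of 9 fits and C1s1 in 2, and without the filter C1s1 was not called (adjusted p = 0.0563). C1s1 and Itgax passed the filter only through CP2-treated mice, where they were higher. NTG mice were as low as 0.581 CPM for C1s1 and 0.654 CPM for Itgax. Without the filter Itgax had a log2 fold change of 3.30.

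Over both arms of APP/PS1 mice, 10 in all, the 9 genes tended to vary together. Pearson's r of log2 CPM was positive for all 36 pairs, with a median of 0.69, and 19 pairs had an adjusted permutation p under 0.05, against 5 pairs by Spearman's rho. The permutations ran over both arms together, so these p-values include any difference between the arms. The arms differ in their means, and r within them was also computed. As a description, r was negative for 1 pair among the vehicle-treated mice, with a median of 0.77, and for 4 pairs among the CP2-treated mice, with a median of 0.55. These 4 were C1qb and C1qc with C5ar1 (-0.51 and -0.55) and with Serping1 (-0.35 and -0.12). Over the 10 mice both pairs with C5ar1 had positive r (0.70 and 0.71) and were among the 19 (adjusted permutation p = 0.0483 each). The part of the arm difference in the 19 pairs was not tested. C1qb and C1qc had r = 0.98 (permutation p = 1e-05, the smallest that 100000 permutations give, adjusted p = 0.000360) and rho = 0.95 (p = 0.0001, adjusted p = 0.00360), and r = 0.95 without the 2 mice farthest from the median. Within the vehicle and CP2 arms of 5 mice r was 0.995 and 0.93 for this pair. C4b and C3 had r = 0.87 (permutation p = 0.00154, adjusted p = 0.0151) and rho = 0.90 (p = 0.00079, adjusted p = 0.0124), and r = 0.85 without the 2 farthest mice.

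C5ar1 and Itgam had r = 0.51 (permutation p = 0.135, adjusted p = 0.152) and rho = 0.39 (p = 0.265, adjusted p = 0.272), and r was -0.03 without the 2 farthest mice. The number of pairs past the adjusted threshold fell to 5 without mouse 16 or mouse 19. All points share tissue makeup and library depth, and the part of these was not tested. Among 16521 genes, those most like C1qa over the 10 mice were Ctss (cathepsin S, r = 0.97) and Clec5a (r = 0.97), and those most like C3ar1 were Ctsd (cathepsin D, r = 0.97) and Itgb5 (r = 0.97). Those most like C4b were Pip4k2a (r = 0.96) and Fam129a (r = 0.96), and those most like Serping1 were Gstm2 (r = 0.96) and Plp2 (r = 0.96). Itgam was most like Gm20531 (r = 0.98) and Wdfy4 (r = 0.97), C1qb like Pik3ip1 (r = 0.93) and Adora2b (r = 0.93), and C1qc like Hsd17b11 (r = 0.95) and Adora2b (r = 0.95). C3 was most like Kcne1l (r = 0.93) and Kif18a (r = 0.93), and C5ar1 like Psme2b (r = 0.92) and Rrm2b (r = 0.91). These likenesses are descriptions, found by search and given without a test.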

How the data were processed

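RNA was sequenced from the brain slices of 14 mice, 1 library per mouse. The authors aligned the reads with TopHat to mm10 and made gene counts with featureCounts on Ensembl genes, where a read over several genes was assigned to all of them. The deposited counts are not normalized. RPKM values were also deposited by the authors and were not used here. The tools' versions and the strand setting are not given in the sources used here. The library kit does not mark strand, so reads from opposite strands cannot be told apart. Mir6978, the only gene analysed that overlaps a member (C3), had 0 to 1 counts.

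Each pair of groups was fitted alone, as in the study's script, which tested with DESeq2. In its place edgeR 4.0.16 (R 4.3.3) was used, with TMM factors, the quasi-likelihood test and Benjamini-Hochberg adjustment. Intervals of 95% come from the log2 fold change and its SE. Ratios were compared with exact permutation tests, whose code was checked against scipy 1.17.1 on random numbers. The ratios were chosen after the data were seen, as were the fits that leave out a mouse for them. Correlations used log2 CPM with a prior count of 2 and 100000 permutations. No replicates were identical (26 pairs compared). Procedures were tested on simulated data.

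Alternatives were DESeq2 1.42.0, RLE and upper-quartile factors, scaling to the microglia markers, no filter on low counts, at least 10 counts in every mouse, all 3 groups in the fit, limma-voom (limma 3.58.1) with sample weights, the ribosomal RNA share as a covariate, a prior count of 0.5 for correlations, and each mouse left out in turn.

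The 9 genes, the list of 59 complement genes and the marker lists were chosen with earlier results of these data known. Genes named are the 9 members, other complement genes called in any comparison or above a mean of 1 CPM, and the 2 genes most correlated with each member. C4a was named for its shared sequence, and complement genes under 1 CPM for their counts after these were seen. Counts over the list include 1 gene whose values are not reported here. Lists of B cells, astrocytes, endothelium, oligodendrocytes, neurons and blood were counted too and are given in the closing section.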

Additional observations from a re-analysis of the deposited data

Results flagged for a closer look

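Serping1 in APP/PS1 mouse 16 was at 10.5 CPM, while the other 4 APP/PS1 mice were at 22.4 to 26.3 CPM. The gap to the nearest mouse was 0.756 of the group's range, above Dixon's critical value of 0.71 for 5 samples. Each of the 9 genes was tested in each of the 3 groups, 27 groups in all, and chance alone marks about 1 group in 20. The same mouse had a sum of 2660 CPM for the striatal markers and the lowest meningeal fibroblast sum, 104 CPM against 160 to 307 CPM in the other 13 mice. The part of either in the Serping1 value was not tested.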

How the results depend on the processing

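No paired analysis was possible because the groups share no mouse numbers. The number of the 9 genes called stayed within 1.5 times its value under every alternative run in all 3 comparisons. With a mouse left out it ranged from 7 to 8 in APP/PS1 against NTG, was 0 throughout in CP2 against vehicle, and ranged from 6 to 8 in CP2-treated against NTG mice. The number of other complement genes called depended more on the processing, and the cause was not tested. In APP/PS1 against NTG it was 4, and became 7 with DESeq2, 7 with limma-voom and 21 with scaling to the microglia markers, where the median of all genes fell by 0.98. It was 2 without any of NTG mice 7 to 10 or APP/PS1 mice 17, 18 or 20, and 8 without mouse 16. Calls over all 16417 genes moved too, from 932 to 1667 with DESeq2, 1563 with limma-voom and 15741 with the microglia scaling. The 21 genes were counted in either direction, and under that scaling 1.04% of all genes were called higher. In CP2-treated against NTG mice the number of other complement genes called was 5, and became 10 with DESeq2 and 9 with limma-voom. It was 3 with all 3 groups in the fit, 2 with the ribosomal RNA covariate and 22, in either direction, with scaling to the microglia markers. With a mouse left out it ranged from 2, without NTG mouse 10 or mouse 21, to 8, without mouse 23. It was 3 without NTG mice 8 or 9 or mouse 22. Calls over all 16416 genes went from 989 to 1670 with DESeq2, 1274 with limma-voom and 703 with all 3 groups. They were 752 with the ribosomal RNA covariate and 15750 with the microglia scaling, where 0.841% of all genes were called higher. Scaling to the microglia markers turned the sign of Itgam in APP/PS1 against NTG (-0.0338) and of C4b (0.0484) and Itgam (0.0570) in CP2 against vehicle, none of which passed the test. Correlated pairs past the threshold numbered 19, and ranged from 5, without mouse 16 or 19, to 14, without mouse 23.

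Some log2 ratios that did not pass the test changed sign with a mouse left out. C1qc to C1qb ranged from -0.0134 to 0.0221 in APP/PS1 against NTG. C4a to C4b ranged from -0.0137 to 0.181 in CP2 against vehicle and from -0.212 to 0.0712 in CP2-treated against NTG. Itgax to Itgam ranged from -0.142 to 0.0961 in CP2 against vehicle. C3 to C4b ranged from -0.381 to 0.561 in APP/PS1 against NTG and from -0.672 to 0.270 in CP2-treated against NTG. The counts of C5ar1 in NTG mice, 37 to 47, limit its precision.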

Other observations

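Of the marker lists not used beside the results, that of neurons had 0 of 7 genes called in APP/PS1 against NTG mice and that of oligodendrocytes 0 of 6. Of 8 astrocyte markers 1 was called lower, with sums of 3627 to 4067 CPM in APP/PS1 and 4170 to 4878 CPM in NTG mice. Of 5 endothelial markers 1, and of 5 blood markers 2, were called higher. The 4 B cell markers summed to 0.720 to 1.63 CPM in APP/PS1 and 0.683 to 0.907 CPM in NTG mice and were not tested. Cfi, which encodes the protease factor I, was too low to test, at 0.0321 to 0.0909 CPM in NTG, 0.0345 to 0.8291 CPM in APP/PS1 and 0.104 to 0.576 CPM in CP2-treated mice, with the groups overlapping between NTG and APP/PS1 mice.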
